A study of Homo sapiens with 4 samples.

Results

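The aminoacyl-tRNA synthetases and the scaffold proteins that hold several of them together were examined in MV4-11 cells, a human acute myeloid leukemia (AML) line with monocytic features, after knockdown of CEBPG. Members were taken by gene symbol, by a rule that uses no expression value but was set with earlier results of these data known. The 39 genes, out of 16490 with a value in the table, comprised 19 enzymes of the cytosol, 17 enzymes of the mitochondrion (symbols ending in 2) and the 3 scaffolds AIMP1, AIMP2 and EEF1E1. AIMP2 was kept with the scaffolds although its symbol also ends in 2. The rule left out the tryptophan enzyme of the cytosol, WARS1, so no count of cytosolic enzymes covers it. RNA was sequenced from cells carrying the control hairpin sh-NC (2 libraries) and from cells carrying sh-CEBPG#3, the only CEBPG hairpin sequenced here (2 libraries). Both groups are lentivirus-infected cells of 1 line selected with puromycin, and the sources used here do not say whether replicate libraries stem from separate infections, so the p-values measure only the spread between these libraries. Levels are FPKM, the fragments of a gene scaled by its length and by the mapped reads of the library, so that levels of different genes can be compared. In bulk RNA, fewer cells of a type and less RNA per cell cannot be told apart.

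CEBPG itself had 30.4 and 33.6 FPKM under sh-NC, then 19.2 and 17.1 FPKM under sh-CEBPG#3, which gives -0.78 as the log2 fold change (SE 0.09, adjusted p = 8.88e-05 in limma). About 56.8% of its transcript therefore remained. All 7 markers listed for MV4-11 (FLT3, CD33, HOXA9, MEIS1, MPO, LYZ and ITGAM) were present, between 3.29 and 3126 FPKM. Among them LYZ, the lysozyme gene of maturing myeloid cells, was at 567 and 610 FPKM in sh-NC cells but at 3126 and 2982 FPKM in sh-CEBPG#3 cells, and MPO, the myeloperoxidase gene, went from 70.7 and 80.4 to 118 and 115 FPKM. CD33 was also higher in both sh-CEBPG#3 libraries, MEIS1 went from 6.65 and 7.34 to 3.42 and 3.29 FPKM, HOXA9 and FLT3 were lower in both, and ITGAM was higher in both. The part of these differences in the results on the synthetases was not tested. Of 15 markers of T, B, erythroid, epithelial and fibroblast cells, 3 had a row with values, none of them above 1.33 FPKM, and their sum was 1.04 to 1.60 FPKM per library.

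Each synthetase joins 1 amino acid to its tRNAs at the cost of ATP, and the ribosome reads the product as the meaning of the codon. The cytosol and the mitochondrion use largely separate enzymes, all encoded in the nucleus, and GARS1 and KARS1 serve both compartments. In animals several cytosolic enzymes form a multi-synthetase complex around AIMP1, AIMP2 and EEF1E1. Many cytosolic synthetase genes are known targets of ATF4, the transcription factor of the amino acid response, with which CEBPG can pair on composite CEBP-ATF elements.

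Upon CEBPG knockdown, 14 of the 39 members fell and 2 rose at an adjusted p under 0.05, and 23 did not pass the test. The decreases were led by FARSA, the alpha subunit of the cytosolic phenylalanine enzyme, and by NARS2, the mitochondrial asparagine enzyme. The increases were those of HARS2 and FARS2, the mitochondrial enzymes for histidine and phenylalanine. Changes were small, since none of the 39 had an absolute log2 fold change above 1, whether the adjusted or the unadjusted p of limma was used, against 3.37% of all genes tested that passed 1 with an adjusted p under 0.05. Members called made up 41.0% of the 39, and among the 12142 genes tested 42.2% were called, so the members changed about as often as other genes. By direction, 35.9% of the members were called lower against 23.8% of all genes, and 5.13% were called higher against 18.5%. The groups did not overlap, with both sh-CEBPG#3 libraries below both sh-NC libraries, in 21 members (53.8%, against 40.2% of all genes), and in 8 members both were above (31.5% of all genes). The median log2 fold change was -0.12 over the members and -0.04 over all genes tested.

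Single libraries and scalings moved these counts. Without sh-CEBPG#3 replicate 2, 7 members were called lower and 1 higher, which is 20.5% of the members against 31.9% of all genes called in that fit. Quantile normalization gave 17 lower and 5 higher, which is 56.4% of the members against 47.4% of all genes called in that fit. Higher calls made up 12.5% of the member calls in the main fit and 22.7% of them with quantile normalization. On another base, that of all genes tested whether called or not, 25.15% were then called lower and 22.2% higher. The like counts for the members are the 17 and 5 out of 39. Equal totals gave 18 lower and 3 higher, with 28.8% of all genes called lower and 19.3% higher. The 7 members FARSA, LARS1, YARS1, RARS1, AIMP1, NARS2 and HARS2 stayed past the threshold under all 8 alternatives with all libraries and without each library in turn, and no called member changed sign in any of them. The depth of the libraries is unknown, as FPKM values carry no read counts.

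**Figure D1:**
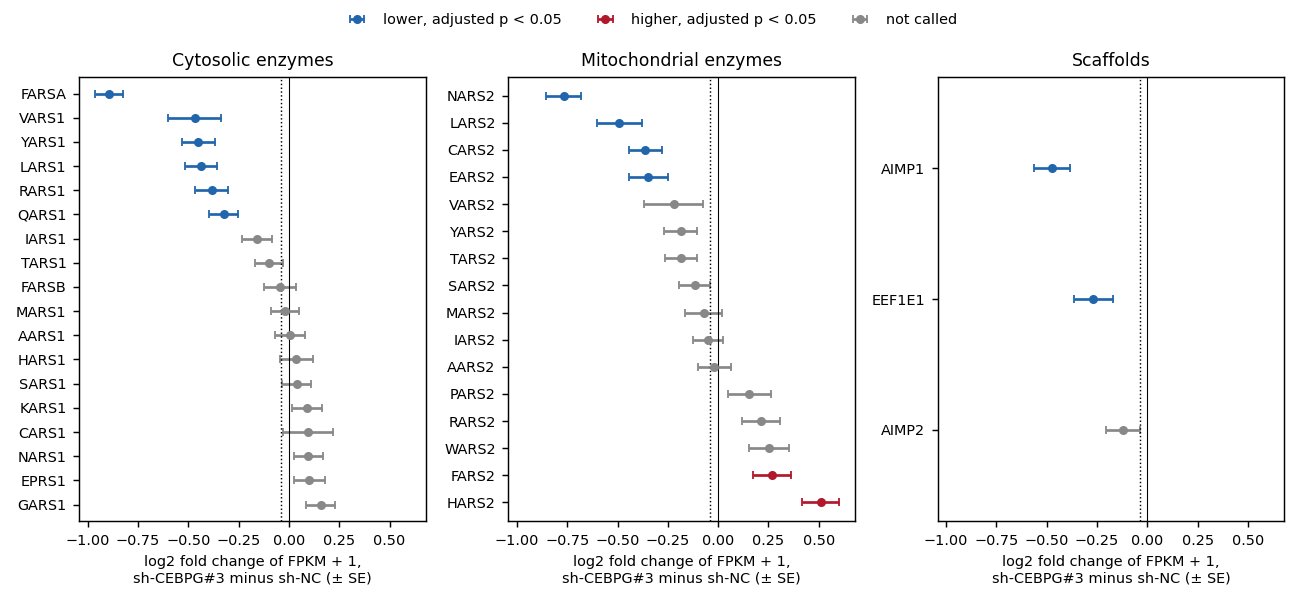
Log2 fold change of FPKM + 1 (sh-CEBPG#3 minus sh-NC, bars are standard errors from limma, 2 libraries per group) for 18 cytosolic enzymes, 16 mitochondrial enzymes and 3 scaffolds, with the median of all genes as a dotted line. FARSA at -0.89 and NARS2 at -0.77 lie lowest, HARS2 at 0.51 lies highest, and no cytosolic enzyme is called higher.

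Among the 19 cytosolic enzymes, 7 fell, 12 did not pass the test and 0 rose, also with an unadjusted p in limma (with equal totals, with quantile normalization and without sh-NC replicate 2, GARS1 alone was called higher). The 7 make up 36.8% of the class, against 23.8% of all genes called lower and 42.2% called in either direction. FARSA (RefSeq NM_004461, chromosome 19 from 12922479 to 12933711 on the minus strand, GRCh38.p14) had the highest level of all members in the control cells. It had 220 and 236 FPKM under sh-NC, then 125 and 120 FPKM under sh-CEBPG#3. The groups lay far apart, with 53.6% of the control level remaining. Its log2 fold change was -0.89 (SE 0.07, adjusted p = 8.68e-06 in limma), which ranked 219 from the lowest among the genes tested.

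FARSB, the beta subunit, pairs with FARSA in 1 enzyme made of both chains. FARSB had 21.7 and 21.1 FPKM under sh-NC, then 21.7 and 19.7 FPKM under sh-CEBPG#3, which overlapped (log2 fold change -0.05, SE 0.08, adjusted p = 0.69 in limma). The FPKM of FARSA relative to FARSB was accordingly 10.1 and 11.2 in sh-NC cells and 5.74 and 6.09 in sh-CEBPG#3 cells. The FARSB signal was divided between a coding RefSeq row (11.3 FPKM on average in sh-NC cells) and a non-coding one (10.1 FPKM). Against the coding row alone the ratios were 19.6 and 20.9 in sh-NC cells and 9.18 and 11.8 in sh-CEBPG#3 cells, again without overlap. With 2 libraries per group the exact two-sided permutation test of such a ratio cannot give a p under 0.333.

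The other cytosolic decreases were smaller. LARS1, the leucine enzyme that also takes part in leucine sensing for mTORC1, fell from 53.8 ± 0.463 to 39.6 ± 3.12 FPKM (SD, n = 2 each, log2 fold change -0.44, adjusted p = 0.0016 in limma). YARS1, the tyrosine enzyme, fell from 57.1 ± 1.93 to 41.6 ± 3.86 FPKM (SD, n = 2 each, -0.45, adjusted p = 0.0018 in limma). RARS1 and QARS1, the enzymes for arginine and glutamine, fell by 0.39 and 0.32 on the log2 scale. VARS1, the valine enzyme, had a log2 fold change of -0.47 with the widest error of the 7 (SE 0.13). Its sh-CEBPG#3 libraries held 10.5 and 7.85 FPKM, and without replicate 2 of that group the call was lost (-0.28, adjusted p = 0.12 in limma). The call of QARS1 was lost without the same library (adjusted p = 0.070 in limma).

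The most abundant enzymes after FARSA did not pass the test. AARS1, MARS1, TARS1 and EPRS1, which serve alanine, methionine, threonine and both glutamate and proline, had means over the 4 libraries of 128, 117, 94.6 and 93.3 FPKM and log2 fold changes of 0.01, -0.02, -0.10 and 0.10. IARS1 and SARS1, the isoleucine and serine enzymes, had log2 fold changes of -0.16 and 0.04. GARS1, the glycine enzyme of both compartments, had 65.9 and 69.8 FPKM under sh-NC, then 77.4 and 74.2 FPKM under sh-CEBPG#3. These groups did not overlap, but the log2 fold change of 0.16 did not pass (adjusted p = 0.10 in limma). KARS1, the lysine enzyme of both compartments, had 76.3 and 84.3 FPKM under sh-NC, then 86.3 and 84.5 FPKM under sh-CEBPG#3 (log2 fold change 0.09, adjusted p = 0.36 in limma). CARS1, the cysteine enzyme, was listed at only 1.57 to 2.00 FPKM, but 2 of its 5 RefSeq rows hold no value, so its level is understated by an unknown amount.

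**Figure D2:**
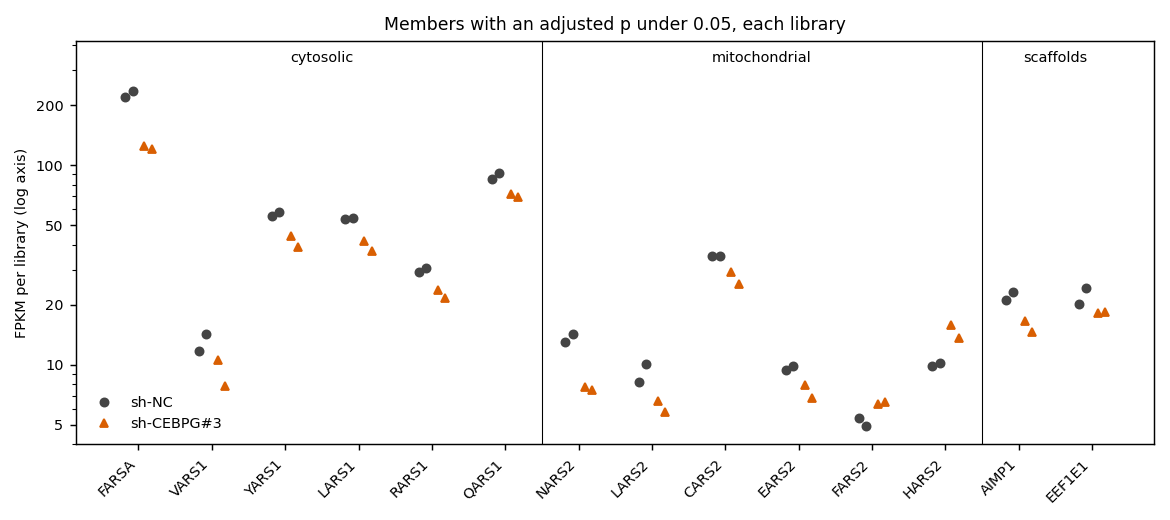
FPKM per library on a log axis for 14 of the 16 members with an adjusted p under 0.05, with sh-NC libraries as circles and sh-CEBPG#3 libraries as triangles. The groups do not overlap in any of the 14, and HARS2 and FARS2 are the members in which the triangles lie above.

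Of the 11 members of the multi-synthetase complex, 6 fell and none rose (none at an unadjusted p in limma either), which is 54.5% against the 23.8% of all genes called lower. Without sh-CEBPG#3 replicate 2 the count was 3, against 16.1% of all genes in that fit, and it was 4 without sh-CEBPG#3 replicate 1, with the replicate block and with the most abundant row of each gene. Of all genes, 22.0% were called lower with the replicate block and 12.8% with the most abundant row. The count rose to 7 with equal totals and to 8 with quantile normalization, against 28.8% and 25.15% of all genes in those fits. In the main fit LARS1, QARS1 and RARS1 were among the 6, while EPRS1, IARS1, MARS1 and KARS1 did not pass. AIMP1, a scaffold that is also released as a cytokine, had 21.0 and 23.1 FPKM under sh-NC, then 16.6 and 14.6 FPKM under sh-CEBPG#3 (log2 fold change -0.48, SE 0.09, adjusted p = 0.0021 in limma). EEF1E1, the smallest scaffold, had 20.1 and 24.3 FPKM under sh-NC, then 18.1 and 18.3 FPKM under sh-CEBPG#3. The groups lay close to each other, and the call (-0.27 on the log2 scale, adjusted p = 0.046 in limma) was lost without sh-NC replicate 2 (-0.14, adjusted p = 0.31) and without either sh-CEBPG#3 library (adjusted p = 0.14 and 0.12). EEF1E1 shares 18.8% of its annotated exon bases with a read-through gene, EEF1E1-BLOC1S5, whose reads cannot be told apart there. AIMP2, which had 28.3 and 32.5 FPKM under sh-NC, then 28.2 and 27.4 FPKM under sh-CEBPG#3, did not pass (-0.12, adjusted p = 0.28 in limma), and 29.1% of its annotated exon bases overlap EIF2AK1. Of the 11 cytosolic enzymes outside the complex, FARSA, VARS1 and YARS1 fell (27.3%, near the 23.8% of all genes called lower).

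The 17 mitochondrial enzymes were expressed at lower levels, the median level being 11.0 FPKM, while the cytosolic enzymes had 64.7 FPKM. Of them, 5 fell, 2 rose and 10 did not pass the test, so that 41.2% were called against 42.2% of all genes (29.4% lower and 11.8% higher). NARS2 (chromosome 11 from 78435968 to 78574864 on the minus strand, GRCh38.p14) had 13.1 and 14.3 FPKM under sh-NC, then 7.77 and 7.45 FPKM under sh-CEBPG#3. The libraries of each group lay close together and 55.7% of the control level remained, a log2 fold change of -0.77 (SE 0.09, adjusted p = 9.60e-05 in limma). The cytosolic asparagine enzyme NARS1 had means of 72.6 ± 2.78 and 77.7 ± 3.85 FPKM (SD, n = 2 each) and did not pass (0.10, adjusted p = 0.32 in limma).

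LARS2, CARS2 and EARS2, the mitochondrial enzymes for leucine, cysteine and glutamate, fell by 0.49, 0.36 and 0.35 on the log2 scale. Without sh-CEBPG#3 replicate 2 the calls of CARS2 and EARS2 were lost (adjusted p = 0.084 and 0.11 in limma). VARS2, the enzyme with the lowest level, had 0.633 and 0.948 FPKM under sh-NC, then 0.545 and 0.518 FPKM under sh-CEBPG#3, with 1 of its 3 RefSeq rows holding no value, and it did not pass (-0.22, adjusted p = 0.25 in limma).

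HARS2 had 9.90 and 10.2 FPKM under sh-NC, then 15.9 and 13.7 FPKM under sh-CEBPG#3, well apart from each other (log2 fold change 0.51, SE 0.09, adjusted p = 0.0017 in limma). HARS1, the cytosolic histidine enzyme, had 19.7 and 21.8 FPKM under sh-NC, then 21.4 and 21.0 FPKM under sh-CEBPG#3 (0.04, adjusted p = 0.75 in limma). HARS1 and HARS2 lie head to head on chromosome 5, HARS1 on the minus strand from 140673905 to 140691370 and HARS2 on the plus strand from 140691455 to 140699305 (GRCh38.p14). The 84 bases between their RefSeq starts, chr5:140691371-140691454, are shown on the plus strand because a single short stretch lies upstream of both genes, of which 1 rose and the other did not pass.

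HARS1-HARS2: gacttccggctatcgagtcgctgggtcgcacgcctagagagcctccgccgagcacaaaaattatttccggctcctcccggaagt

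GENCODE transcripts of these neighbours also share 108 exon bases on opposite strands, and the strand setting of the counting is not given in the sources used here. FARS2 had 5.43 and 4.91 FPKM under sh-NC, then 6.33 and 6.52 FPKM under sh-CEBPG#3, a small difference without overlap (log2 fold change 0.27, adjusted p = 0.042 in limma). This call was lost without sh-NC replicate 2 (adjusted p = 0.22), without sh-CEBPG#3 replicate 1 (adjusted p = 0.087) and without sh-CEBPG#3 replicate 2 (adjusted p = 0.14 in limma). WARS2 and RARS2, for tryptophan and arginine, had log2 fold changes of 0.25 and 0.22 and did not pass (adjusted p = 0.065 and 0.092 in limma). Both were called higher with quantile normalization (adjusted p = 0.021 and 0.041 in limma), and WARS2 also with equal totals (adjusted p = 0.045). Without sh-NC replicate 2 the log2 fold change of RARS2 was 0.33. IARS2, at a mean of 43.2 FPKM the most abundant mitochondrial enzyme, had a log2 fold change of -0.05. AARS2, MARS2, PARS2, SARS2, TARS2 and YARS2, for alanine, methionine, proline, serine, threonine and tyrosine, had log2 fold changes of -0.02, -0.07, 0.16, -0.12, -0.19 and -0.19 and did not pass either. With equal totals TARS2 and YARS2 were called lower (adjusted p = 0.024 and 0.040 in limma). The main RefSeq row of TARS2, NM_025150 with 69.9% of its signal, had a log2 fold change of 0.05, against -0.60 for NM_001271895. Other annotated genes overlap 48.2% of the exon bases of SARS2 and 63.0% of those of VARS2.

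The cytosolic and the mitochondrial enzymes differed little as classes, and no test between them was made. The median log2 fold change was -0.05 for the cytosolic and -0.12 for the mitochondrial enzymes, a difference of -0.07 that became 0.0104 with quantile normalization and -0.0179 when GARS1 and KARS1, used in both compartments, were left out. Summed over the enzymes, the cytosolic class had 1288 and 1371 FPKM in sh-NC cells and 1197 and 1139 FPKM in sh-CEBPG#3 cells, and the mitochondrial class had 238 and 251 against 228 and 215 FPKM. Neither sum overlapped between the groups. Without FARSA (a choice made with its values known) the cytosolic sums were 1067 and 1135 FPKM in sh-NC cells and 1073 and 1019 FPKM in sh-CEBPG#3 cells, which overlapped. No sum was scaled to the FPKM totals over all genes, which were 364353.5 and 388061.1 in sh-NC cells and 389766.2 and 376166.8 in sh-CEBPG#3 cells. The lowest total was that of sh-NC replicate 1, so the overlap is not read as a result about FARSA.

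The enzymes of the same amino acid were then set side by side in 16 pairs. In 15 pairs the mitochondrial enzyme lay below the cytosolic one in all 4 libraries. The exception was CARS2 against CARS1, whose listed level is understated. In sh-NC cells the mitochondrial level ranged from 2.26% (FARS2 against FARSA) to 64.4% (IARS2 against IARS1) of the cytosolic level, CARS2 aside. Both partners fell in 2 pairs, that for leucine among them. For phenylalanine FARSA alone was taken as the cytosolic partner. FARS2 and FARSA moved in opposite directions, and FARS2 went from 2.46% and 2.08% of FARSA under sh-NC to 5.08% and 5.42% under sh-CEBPG#3. The other subunit, FARSB, had a mean of only 21.4 FPKM under sh-NC and did not pass (-0.05). No ratio of FARS2 to FARSB was computed, and the 2.26% above also rests on this choice of subunit. NARS2 went from 18.5% and 19.1% of NARS1 to 9.66% and 9.93%, and HARS2 from 50.4% and 46.8% of HARS1 to 74.1% and 65.0%. In 3 pairs (arginine, valine and tyrosine) only the cytosolic partner was called, in 4 (cysteine, glutamate, histidine and asparagine) only the mitochondrial one, and in 6 neither. The ratio of the partners did not overlap between the groups in 10 pairs, 5 in each direction. No share over all genes was computed for such ratios. Among single genes tested, 40.2% lay lower and 31.5% higher without overlap, so this count is not read as a result about the pairs.

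Cytosolic enzymes known as ATF4 targets were compared with the rest of the class. Of the 12 on that list, 3 (LARS1, VARS1 and YARS1) fell and 9 did not pass (25% lower, against 23.8% of all genes), with a median log2 fold change of -0.01. Of the 7 others, 4 fell (57.1%, FARSA, RARS1 and QARS1 among them), with a median of -0.27. These counts shifted with the setting, since 6 of the 12 and 4 of the 7 were called lower with quantile normalization, 5 and 4 with equal totals, and 2 and 2 without sh-CEBPG#3 replicate 2. The first median changed to -0.10 with quantile normalization and to 0.04 without sh-NC replicate 2. ATF4 itself had 264 FPKM in sh-NC cells and 262 FPKM in sh-CEBPG#3 cells on average (-0.01, adjusted p = 0.92 in limma). Of 25 genes consisting of ATF4 and known targets other than synthetases, 4 fell, 5 rose and 16 did not pass, with a median log2 fold change of 0.06. Their shares of 16% lower and 20% higher lay near the 23.8% and 18.5% of all genes. ASNS and DDIT3 were among those that did not pass, while SLC1A5, a glutamine carrier, had the largest decrease (-0.88) and NUPR1, a stress-induced chromatin protein, the largest increase (0.72).

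RefSeq promoters (250 bases before to 50 after a start, GRCh38.p14) were at hand for 32 of the 39 members. They were searched on both strands for the core of the composite CEBP-ATF element, TGATGNAA. It was found in 8 of the 32 members (25%), against 2.55% of the 9185 tested genes with a promoter in the table and 3.62% of all 35116 promoters there. The 8 matches are shown in windows of 30 bases, on the strand that reads the element, because such elements are where CEBPG and ATF4 are known to pair. Capitals mark the element.

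AARS1 (chr16:70289675-70289704, plus strand): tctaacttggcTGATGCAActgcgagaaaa
CARS1 (chr11:3057407-3057436, plus strand): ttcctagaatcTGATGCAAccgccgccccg
GARS1 (chr7:30594834-30594863, minus strand): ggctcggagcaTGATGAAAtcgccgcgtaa
IARS1 (chr9:92293692-92293721, plus strand): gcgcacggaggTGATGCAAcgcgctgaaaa
MARS1 (chr12:57488053-57488082, minus strand): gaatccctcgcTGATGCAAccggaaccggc
NARS1 (chr18:57621804-57621833, minus strand): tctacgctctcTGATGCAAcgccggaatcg
TARS1 (chr5:33440956-33440985, minus strand): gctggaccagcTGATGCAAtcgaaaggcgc
YARS2 (chr12:32756076-32756105, minus strand): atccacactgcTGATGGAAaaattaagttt

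Distances refer to the RefSeq start of the searched promoter. The element began 187 bases before that start in AARS1 and 197 bases before it in YARS2. In the other 6 members it began between 33 bases before and 14 bases after that start. The annotated bounds of GARS1 and TARS1 begin further upstream, at chr7:30594735 and chr5:33440696. AARS1, CARS1, GARS1, IARS1, MARS1, NARS1 and TARS1 are cytosolic and also stand on the ATF4 list. The 8 genes had log2 fold changes from -0.19 for YARS2 to 0.16 for GARS1, with a median of -0.01, and 0 of them passed an adjusted p under 0.05 in limma (1, YARS2, had an unadjusted p under 0.05). Of the 24 members with a promoter but without the element, 9 fell and 2 rose, beside 23.8% lower and 18.5% higher among all genes tested. Of the 234 tested genes with the element, 20.1% were called lower. The share among tested genes without the element was not computed, and the contrast was not tested. The absence of calls depended on the scaling, since 4 of the 8 were called with equal totals (GARS1 higher and IARS1, TARS1 and YARS2 lower) and 4 with quantile normalization (GARS1 higher and IARS1, MARS1 and TARS1 lower), and GARS1 was called higher without sh-NC replicate 2. The palindromic CEBP site TTGCGCAA was in no member promoter (0.316% of the tested genes), and the CCAAT box was in 18 of the 32 members (56.2%, against 43.3% of the tested genes). These are matches of letters only, and binding was not measured here.

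Of the members, 20 rest on 1 RefSeq row and 19 on several. Of the 53 member rows with a mean of at least 0.5 FPKM, 4 were called lower and none higher in limma when rows were tested singly (11 lower and 3 higher at an unadjusted p under 0.05), a test added with the values known, against 4.08% lower and 4.16% higher of all rows tested. These rows belonged to FARSA, NARS2, LARS1 and QARS1. The main LARS1 row, NM_020117, had 52.1 and 51.6 FPKM under sh-NC, then 34.3 and 34.7 FPKM under sh-CEBPG#3. Its decrease was larger (-0.57, adjusted p = 0.020 in limma) than that of the gene, and the minor row NM_001317964 held 1.41 and 2.60 FPKM in sh-NC cells but 7.52 and 2.66 FPKM in sh-CEBPG#3 cells. KARS1 has the rows NM_005548 and NM_001130089, known from background and not from the files as its cytosolic and mitochondrial forms. The row NM_001130089 had 22.1 and 16.5 FPKM in sh-NC cells and 28.7 and 27.7 FPKM in sh-CEBPG#3 cells, which did not overlap but did not pass (0.54, adjusted p = 0.11 in limma). Its share of KARS1 was 29.0% and 19.6% under sh-NC, then 33.2% and 32.8% under sh-CEBPG#3.

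Among 20 other genes that handle charged tRNAs, 7 fell, 2 rose and 11 did not pass, and the median log2 fold change was -0.10. Called genes made up 45% of this list against 42.2% of all genes, with 35% lower and 10% higher. DTD1, which frees tRNAs from D-amino acids, and the related gene DTD2 had the largest decreases of this list. DTD1 went from a mean of 19.7 to 8.70 FPKM (-1.11, adjusted p = 4.99e-05 in limma). DTD2 went from a mean of 4.45 to 1.95 FPKM (-0.89, adjusted p = 0.00016 in limma). TARS3, a further threonine enzyme of the cytosol outside the symbol rule, fell by 0.64 on the log2 scale to a mean of 0.553 FPKM.

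The tRNA exporter XPOT (-0.23), the elongation factor subunit EEF1D (-0.36) and GCN1, which helps to sense uncharged tRNA (-0.39), also fell. EEF1A1, which carries charged tRNA to the cytosolic ribosome, was at 4398 and 4523 FPKM on average and did not pass (0.04, adjusted p = 0.70 in limma). Its mitochondrial counterpart TUFM rose from 134 to 160 FPKM (0.25, adjusted p = 0.021 in limma). Within the mitochondrial amidotransferase that makes Gln-tRNA, QRSL1 fell by 0.33, GATB rose by 0.31 and GATC did not pass (0.05).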

How the data were processed

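RNA of MV4-11 cells was sequenced in 2 sh-NC and 2 sh-CEBPG#3 libraries. Reads were filtered and aligned with HISAT by the authors, and FPKM per RefSeq transcript and library were deposited. The submitters' processing notes name HISAT2 2.0.5 and hg38, and the annotation and the program behind the FPKM values are not given in the sources used here. Values were summed per symbol over rows with a value (28581 of 28780). The 12142 genes whose mean reached 0.5 FPKM were compared on log2(FPKM + 1) with limma 3.58.1 in R 4.3.3 (trend, no block, two-sided), with Benjamini-Hochberg adjustment over all of them. Fold changes on this scale understate those of low genes. No count test was run. All 39 members passed the filter on low values, and 2 of them enter the counts, medians and sums but are not reported here by name or drawn. The members and lists were chosen with earlier results of these data known, so no list was tested as a set. Values per library are given for called members with an absolute log2 fold change of at least 0.5, the scaffolds, GARS1, KARS1, HARS1, HARS2 and the members with the highest and lowest mean, and further values were added after they were seen. Alternatives were pseudocounts of 0.1 and 0.01, no filter or a mean of at least 1 FPKM, equal totals, quantile normalization, a replicate block, the most abundant row per gene and leaving out each library. Promoters come from RefSeq (GRCh38.p14), exon overlaps from GENCODE on GRCh38, both searched with Python 3.11.15.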

Additional observations from a re-analysis of the deposited data

How the results depend on the processing

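Over all genes the share called went from 42.2% in the main fit to 24.8% without a filter and 23.9% with the most abundant RefSeq row. It was 39.2% with the replicate block, 48.2% with equal totals and 47.4% with quantile normalization. Counts are given as lower and higher calls. For all members they were 14 and 2, with 10 and 1 without a filter, 18 and 3 with equal totals, 17 and 5 with quantile normalization, 12 and 1 with the replicate block, 9 and 1 with the most abundant RefSeq row, and 7 to 14 and 1 to 3 without each library. For the cytosolic enzymes they were 7 and 0, with 6 and 0 without a filter and with the replicate block, 9 and 1 under equal totals, 10 and 1 with quantile normalization, 5 and 0 with the most abundant row, and 4 to 7 and 0 to 1 without each library. For the mitochondrial enzymes they were 5 and 2, with 3 and 1 without a filter, 7 and 2 under equal totals, 5 and 4 with quantile normalization, 5 and 1 with the replicate block, 3 and 1 with the most abundant row, and 2 to 5 and 1 to 2 without each library. The difference of the class medians was -0.07, and 0.0104 with quantile normalization, -0.0179 without GARS1 and KARS1, -0.0225 without CARS1 and VARS2 (chosen after seeing the data) and -0.0861 to -0.0259 without each library. The median of the ATF4 list was -0.01, and -0.10 with quantile normalization. That of the other cytosolic enzymes was -0.27, and -0.30 with equal totals. Among the values of single members, 29 lost and 14 gained a call, and none that was called reversed. The cause was not tested.

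Same-numbered libraries deviated with a correlation of 0.061 over the genes, so the titles' numbers are not taken as a pairing. With the replicate block the calls of EEF1E1 and FARS2 were among those lost (adjusted p = 0.062 and 0.067 in limma). Fits without 1 library assume that the lone library of its group varies like the other group. Depth is unknown, and changes of the low members VARS2 and CARS1 cannot be weighted by it.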
